A study of Mus musculus with 16 samples.

Results

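Atf3, Plk2, Ifrd1, Mex3b, Fos, Fosl1, Jun, Junb, Egr1 and Dusp1 are 10 immediate early and stress-response genes, and they were followed through bulk RNA sequencing of murine gingival fibroblasts (mGFs). They were taken by gene symbol from a table of 56941 annotated genes, of which 16306, including the 10, had enough counts to be tested. The 10 were chosen from a list drawn up with earlier results of these same counts in view, so their fitted differences are given as a description and carry no test of their own. The cells were primary wild-type fibroblasts grown from explants of the gingiva of C57Bl6 mice 3 to 6 months old and used between passages 2 and 8. Of the 16 libraries, 4 came from each of BSA (control), the albumin carrier alone (replicates 1 to 4), IL-1β at 1 ng/mL (replicates 5 to 8), palmitate complexed to albumin at 200 μM (replicates 9 to 12) and the combination, palmitate + IL-1β, at those doses (replicates 13 to 16), all after 24 h. The sources do not say whether the IL-1β wells also held the albumin carrier, so in IL-1β against BSA (control) the cytokine and a lack of carrier cannot be told apart. Nothing in the sources says that the libraries of a condition came from separate cultures or animals, so the errors measure the spread between these libraries, which may be technical.

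Immediate early genes are transcribed within minutes of a stimulus from factors already present in the cell, without the need for new protein synthesis, and their mRNAs are usually short-lived. Many encode transcription factors. Fos and Jun proteins pair through a leucine zipper into the dimer AP-1, and Egr1 is a zinc finger factor that is switched on by the ERK pathway. Others close the loop, as does Dusp1, a phosphatase that inactivates MAP kinases. IL-1β, acting through its receptor, MyD88 and the MAP kinase and NF-κB pathways, is a classical inducer of AP-1 in fibroblasts, and the saturated fatty acid palmitate is widely used to impose lipid stress. A single time point of 24 h cannot show the first burst of such genes.

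The structure of the 10 genes, which the choice did not use, varied. Their canonical transcripts spanned a median of 4741.5 bp, against 23420 bp for the 12913 protein-coding genes tested and annotated, and held a median of 4 exons, against 9. Jun and Junb had 1 exon, and Egr1 and Mex3b had 2, so that 4 of the 10 genes had 2 exons or fewer, against 7.49% of all. Plk2, with 14 exons, and Ifrd1, with 12 exons over 21643 bp, were unlike them. The heptamer TATTTAT, the core of an AU-rich element of the kind found in short-lived mRNAs, occurred at least once in the 3′ UTR of 6 of the 10 genes (Fos, Fosl1, Jun, Atf3, Dusp1 and Plk2), against 33.1% of all. At least 3 ATTTA pentamers were found in 5 of the 10 genes, against 43.0% of all.

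The RefSeq promoter table (GRCm38.p6) held 8 of the 10 genes; Fosl1 and Egr1 had no entry. Motifs were searched on both strands in the 300 bases from 250 before to 50 after each start site, in the 8 genes and in all 32851 promoters. The cAMP response element TGACGTCA, bound by CREB and ATF proteins, was found in Plk2, at positions −62 to −55 from the start site, and in Dusp1, at −143 to −136. It was in 1.79% of all promoters and in 3.16% of the 10801 GC-rich ones, those at least as GC-rich as the least GC-rich of the 8 (58.7%). Its core TGACG was found in 7 of the 8 (all but Jun), against 20.8% of all promoters and 31.5% of the GC-rich ones. Jun held the AP-1-like element TGACATCA through which c-Jun is known to act on its own gene, at −45 to −38 (3.62% of all promoters, 1.08% of the GC-rich ones). Atf3 held the C/EBP-ATF element TGATGNAA on the other strand, at −110 to −103 (3.97% and 1.204%), and Fos held TATAAA at −33 to −28 and Junb at 1 to 6, past the annotated start site (13.6% and 3.42%). The AP-1 site TGANTCA was in none of the 8 windows, against 7.81% of all promoters and 3.43% of the GC-rich ones, shares at which few of 8 windows would hold it. The CArG box of serum response elements was also in none of the 8 (1.63% and 1.06%). The remaining motifs searched were common or found once. The Sp1 box GGGCGG was in 7 of the 8 (35.7% and 77.8%) and CCAAT in 5 (37.4% and 32.1%). The E-box CACGTG was in Dusp1 (7.15% and 10.6%), and a κB site was in Fos (4.51% and 6.51%). A match describes letters in a window and not a bound site. Each sequence below is the 250 bases before the start site, 5′ to 3′ on the gene's strand. Capitals mark the cAMP response element, its core, the AP-1-like element, the C/EBP-ATF element and TATAAA. Sequences are shown for the 5 genes that hold one of these other than the core within these 250 bases.
Plk2 (chr13:110394794-110395043, plus strand): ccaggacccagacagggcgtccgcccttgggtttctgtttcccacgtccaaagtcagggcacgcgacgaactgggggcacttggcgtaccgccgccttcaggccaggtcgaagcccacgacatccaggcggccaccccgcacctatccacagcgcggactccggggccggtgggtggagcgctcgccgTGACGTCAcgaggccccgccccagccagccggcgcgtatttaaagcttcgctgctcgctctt
Dusp1 (chr17:26508473-26508722, minus strand): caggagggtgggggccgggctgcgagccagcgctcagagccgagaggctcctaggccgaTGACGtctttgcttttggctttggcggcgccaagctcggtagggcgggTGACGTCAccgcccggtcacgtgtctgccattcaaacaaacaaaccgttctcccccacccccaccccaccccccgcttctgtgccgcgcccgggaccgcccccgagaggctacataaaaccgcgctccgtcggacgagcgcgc
Atf3 (chr1:191183334-191183583, minus strand): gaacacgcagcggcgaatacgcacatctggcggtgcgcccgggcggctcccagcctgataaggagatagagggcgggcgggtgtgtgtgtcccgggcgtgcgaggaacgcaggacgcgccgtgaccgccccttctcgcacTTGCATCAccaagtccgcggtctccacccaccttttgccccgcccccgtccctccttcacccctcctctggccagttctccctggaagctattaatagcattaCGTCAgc
Jun (chr4:95052223-95052472, minus strand): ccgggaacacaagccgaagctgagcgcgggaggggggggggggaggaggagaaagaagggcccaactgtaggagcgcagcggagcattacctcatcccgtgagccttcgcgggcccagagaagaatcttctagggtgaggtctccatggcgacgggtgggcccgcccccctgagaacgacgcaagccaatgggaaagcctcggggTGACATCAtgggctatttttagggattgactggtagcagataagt
Fos (chr12:85473640-85473889, plus strand): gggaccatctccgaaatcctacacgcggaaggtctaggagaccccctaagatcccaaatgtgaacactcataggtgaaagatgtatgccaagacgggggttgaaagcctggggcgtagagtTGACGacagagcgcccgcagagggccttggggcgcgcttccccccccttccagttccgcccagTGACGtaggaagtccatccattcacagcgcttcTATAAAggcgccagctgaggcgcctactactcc

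Levels are given as CPM, each gene's count relative to its library's total after TMM scaling. They are compared between genes only as FPKM, which divides CPM by the exonic length in kilobases. That length joins the exons of all annotated transcripts of a gene and can exceed that of the transcript expressed. For Junb it was 2381 bp, against 1809 bp for its canonical transcript of 1 exon. For Dusp1 it was 3324 bp, against a canonical span of 2930 bp. The order of genes by FPKM therefore depends in part on the annotation. The libraries held 21234789 to 35329711 counts on genes, except palmitate replicate 10, with 92752515. A count of 3, the floor used here for detection, stood between 0.0331 and 0.146 CPM, and each of the 10 genes was above it in all 16 libraries. The 10 fibroblast markers checked, led by Fn1, summed to between 46375 and 57848 CPM, against 2.87 to 4.59 CPM for 8 macrophage markers and 0.288 to 0.886 CPM for 7 epithelial ones, with Adgre1, C1qa, Krt8 and Krt18 at 3 counts or fewer in every library. Markers of pericytes and smooth muscle, mostly Cspg4, summed to 99.3 to 112 CPM in BSA (control) and 110 to 134 CPM in IL-1β; the part of such cells in the results was not tested. In bulk RNA, a change in the number of cells that express a gene and a change in its RNA per cell cannot be told apart.

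In cells under BSA (control), the order of levels per length was led by Jun, at 23.2 FPKM ± 1.22 (SD, n = 4), followed by Plk2, at 21.0 FPKM ± 0.939. Ifrd1 followed at 9.51 FPKM ± 0.460, then Junb at 7.70 FPKM ± 0.577, Mex3b at 7.14 FPKM ± 0.453 and Egr1 at 7.10 FPKM ± 0.576, of which the last 3 did not differ beyond their spread. Dusp1, at 2.27 FPKM ± 0.176, and Atf3, at 2.12 FPKM ± 0.231, were close to each other. Fos, at 0.891 FPKM ± 0.229, and Fosl1, at 0.807 FPKM ± 0.118, were lowest and overlapped, though the level of Fosl1 is uncertain because of an overlapping gene, given below.

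**Figure D1:**
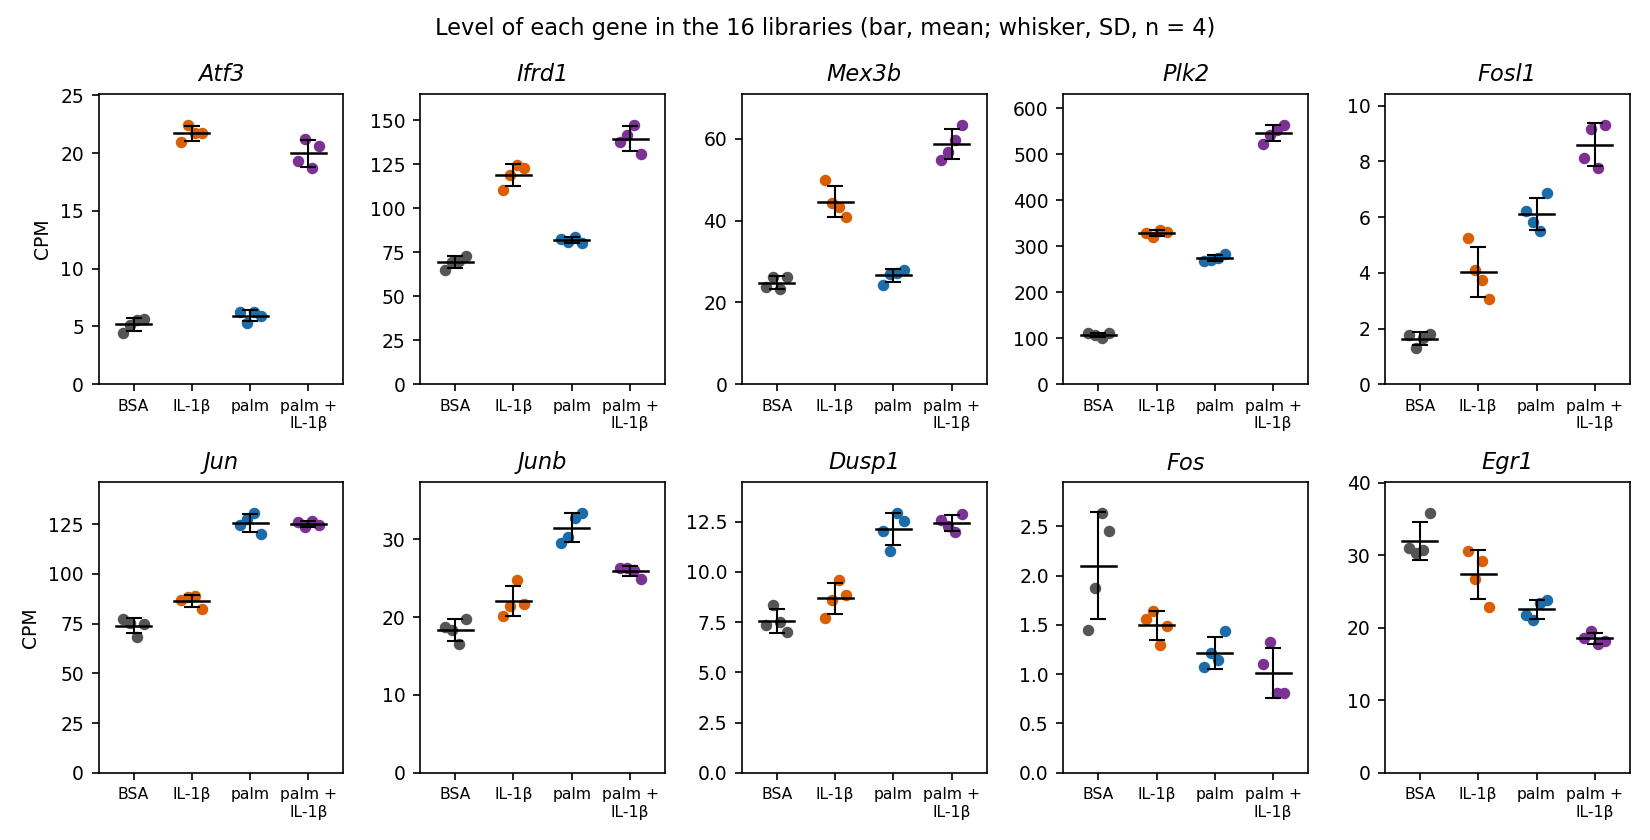
Each panel plots the level of a gene in CPM (linear axis from 0) in 4 libraries of BSA (control), IL-1β, palmitate (palm) and palmitate + IL-1β; points are libraries in replicate order, the long bar is the mean and the whiskers are the SD. Atf3, Ifrd1 and Mex3b stand high in the conditions with IL-1β, Plk2 in all treatments, Jun, Junb and Dusp1 in the conditions with palmitate, and Fos and Egr1 are highest in BSA (control).

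The stress-induced factor Atf3, the transcription co-regulator Ifrd1 and the RNA-binding ubiquitin ligase Mex3b were high wherever IL-1β was present. Atf3, a bZIP factor of the integrated stress response that mostly represses its targets, read 4.41, 5.10, 5.57 and 5.63 CPM in BSA (control) and 20.9, 22.5, 21.7 and 21.7 CPM in IL-1β. It read 6.22, 5.26, 6.28 and 5.92 CPM in palmitate and 19.3, 21.2, 18.7 and 20.6 CPM in palmitate + IL-1β. The values of BSA (control) and palmitate overlapped, as did those of the conditions with IL-1β, and the 2 pairs were far apart. The fitted log2 difference from BSA (control) was 2.07 with IL-1β (95% interval 1.91 to 2.24), 0.17 in palmitate (−0.01 to 0.36) and 1.95 in palmitate + IL-1β (1.79 to 2.12). Without palmitate replicate 10, the deepest library, the palmitate difference was 0.25 and passed the threshold. Intervals throughout are for a single gene and are not adjusted for the number of genes.

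Mex3b, which binds RNA through KH domains, read 23.6, 26.1, 23.3 and 26.3 CPM in BSA (control), 49.8, 44.4, 43.4 and 40.9 CPM in IL-1β, 24.3, 26.9, 27.2 and 27.9 CPM in palmitate and 54.8, 56.8, 59.6 and 63.4 CPM in palmitate + IL-1β. BSA (control) and palmitate overlapped, with a fitted log2 difference of 0.10 (−0.03 to 0.23). All 4 libraries of palmitate + IL-1β were above all 4 of IL-1β, by a log2 difference of 0.39 (0.27 to 0.51). Palmitate therefore went with a higher Mex3b level in cells given IL-1β than in cells given IL-1β alone, while the interaction, 0.29 (0.12 to 0.47), did not pass the threshold over all genes.

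Ifrd1 ranged from 64.9 to 73.02 CPM in BSA (control), 110.2 to 124 CPM in IL-1β, 80.1 to 83.9 CPM in palmitate and 131 to 147 CPM in palmitate + IL-1β. No neighbouring conditions in that order overlapped. Its log2 difference was 0.78 (0.69 to 0.88) for IL-1β and 0.24 (0.14 to 0.34) for palmitate, each against BSA (control), and 1.01 (0.91 to 1.10) for the combination, so that the differences were near additive on the log2 scale, with an interaction interval of −0.15 to 0.12.

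Plk2, a polo-like kinase induced by serum, p53 and cell stress, was high under each treatment and highest under both. Its level was 111, 106, 102 and 112 CPM in BSA (control), 329, 320, 334 and 330 CPM in IL-1β, 269, 271, 275 and 282 CPM in palmitate and 523, 542, 554 and 564 CPM in palmitate + IL-1β. The 4 conditions did not overlap. The log2 difference from BSA (control) was 1.61 (1.52 to 1.69) in IL-1β, 1.35 (1.26 to 1.44) in palmitate and 2.34 (2.26 to 2.43) in palmitate + IL-1β. On the log2 scale the last was below the sum of the single treatments, with an interaction of −0.62 (SE 0.058). Additivity in CPM was not tested.

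Fosl1, which encodes the AP-1 subunit Fra-1, rose through the conditions in the order BSA (control), IL-1β, palmitate and the combination. It read 1.78, 1.29, 1.68 and 1.82 CPM in BSA (control), on 40 to 60 counts a library. It read 5.24, 4.10, 3.74 and 3.07 CPM in IL-1β and 6.22, 5.84, 5.51 and 6.86 CPM in palmitate. In palmitate + IL-1β it read 8.13, 9.17, 7.75 and 9.32 CPM, on 241 to 287 counts. No 2 conditions overlapped, although IL-1β replicate 5, at 5.24 CPM, came close to the lowest palmitate library, at 5.51 CPM. Against BSA (control) the log2 difference was 1.29 (0.98 to 1.61) for IL-1β, 1.88 (1.59 to 2.18) for palmitate and 2.38 (2.10 to 2.67) for the combination, the largest of the 10 genes in the last 2 comparisons, though within the interval of Plk2 in the latter. In the annotation 57.2% of the exonic length of Fosl1 overlaps Ccdc85b on the other strand. Ccdc85b stood at 17.5 CPM ± 0.319 (SD, n = 4) under BSA (control), 16.9 ± 0.827 with IL-1β, 17.8 ± 0.789 with palmitate and 16.3 ± 1.07 with the combination, and it did not pass the threshold in any of these 3 comparisons with BSA (control) (edgeR quasi-likelihood test, adjusted p of 0.67, 0.844 and 0.165).

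Jun, the core AP-1 subunit c-Jun, followed palmitate. It read 77.4, 75.5, 68.4 and 74.9 CPM in BSA (control) and 86.7, 88.4, 88.9 and 82.1 CPM in IL-1β. It read 124, 128, 131 and 120.2 CPM in palmitate and 126, 124, 127 and 125 CPM in palmitate + IL-1β. The conditions with palmitate overlapped each other and were above all libraries without it. The log2 difference from BSA (control) was 0.22 (0.13 to 0.31) in IL-1β, 0.76 (0.68 to 0.85) in palmitate and 0.76 (0.67 to 0.85) in the combination, and the interval of the difference between palmitate + IL-1β and palmitate was −0.09 to 0.08. The antisense transcript Junos overlaps 16.6% of the exonic length of Jun; its level was 2.29 CPM ± 0.301 (SD, n = 4) under BSA (control), 1.99 ± 0.417 with IL-1β, 3.71 ± 0.487 with palmitate and 3.08 ± 0.313 with the combination. Junos passed the threshold in palmitate (log2 difference 0.66, edgeR quasi-likelihood test, adjusted p = 0.000841) and in the combination (0.42, adjusted p = 0.0267), as Jun did, and its part in the Jun counts was not tested.

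Junb, a subunit that activates transcription less than c-Jun does, was highest with palmitate alone. It read 18.7, 18.3, 16.5 and 19.8 CPM in BSA (control), 20.2, 21.5, 24.8 and 21.7 CPM in IL-1β, 29.6, 30.3, 32.8 and 33.4 CPM in palmitate and 26.3, 26.3, 26.0 and 24.9 CPM in palmitate + IL-1β. The 4 conditions did not overlap, though BSA (control) and IL-1β were separated by less than their spread. Its log2 difference from BSA (control) was 0.27 (0.13 to 0.40) in IL-1β, 0.78 (0.65 to 0.91) in palmitate and 0.50 (0.37 to 0.63) in the combination, and palmitate + IL-1β was below palmitate by a fitted log2 difference of −0.28 (−0.41 to −0.15). Between palmitate + IL-1β and palmitate, the interval of Jun thus included 0 and that of Junb lay below 0; whether the genes differed from each other was not tested. Junb shares 7.27% of its exonic length with Prdx2 on the other strand. Prdx2 stood at 112 CPM ± 5.13 (SD, n = 4) in BSA (control), 107 ± 5.48 with IL-1β, 104 ± 3.21 with palmitate and 95.9 ± 4.23 with the combination. Against BSA (control) it passed the threshold only in the combination (log2 difference −0.22, edgeR quasi-likelihood test, adjusted p = 0.000171). Its part in the Junb counts was not tested.

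Dusp1, the MAP kinase phosphatase also known as MKP-1, ranged from 6.99 to 8.37 CPM in BSA (control), 7.69 to 9.59 CPM in IL-1β, 11.1 to 12.9 CPM in palmitate and 12.0 to 12.9 CPM in palmitate + IL-1β. BSA (control) and IL-1β overlapped, as did the conditions with palmitate. Its log2 difference from BSA (control) was 0.20 (0.03 to 0.38) in IL-1β, 0.67 (0.51 to 0.84) in palmitate and 0.72 (0.55 to 0.88) in the combination. The IL-1β difference passed the threshold over all genes only without IL-1β replicate 5, where it was 0.26.

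Egr1 and Fos, the textbook markers of the first wave, were lower in the treated cells. Egr1 read 31.0, 30.2, 30.7 and 35.8 CPM in BSA (control), 30.5, 26.7, 29.2 and 22.9 CPM in IL-1β, 21.8, 21.1, 23.4 and 23.8 CPM in palmitate and 18.6, 19.6, 17.8 and 18.2 CPM in palmitate + IL-1β. BSA (control) and IL-1β overlapped, IL-1β and palmitate overlapped through IL-1β replicate 8, and palmitate + IL-1β was below all other libraries. The log2 difference from BSA (control) was −0.22 (−0.37 to −0.08) in IL-1β, −0.51 (−0.65 to −0.37) in palmitate and −0.78 (−0.93 to −0.64) in the combination. The IL-1β difference rested on few libraries, as it did not pass the threshold over all genes without BSA (control) replicate 4, IL-1β replicate 6 or IL-1β replicate 8; over the fits that left out 1 library it ran from −0.28 to −0.15.

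Fos read 1.45, 1.87, 2.63 and 2.45 CPM in BSA (control), 1.55, 1.64, 1.30 and 1.49 CPM in IL-1β, 1.07, 1.21, 1.14 and 1.44 CPM in palmitate and 1.10, 1.32, 0.804 and 0.810 CPM in palmitate + IL-1β. Outside palmitate replicate 10 these values rest on 22 to 70 counts a library. BSA (control) overlapped IL-1β but not the conditions with palmitate, and its lowest library, at 1.45 CPM, was next to the highest palmitate library, at 1.44 CPM. Against BSA (control) the log2 difference was −0.48 (−0.89 to −0.07) in IL-1β, −0.77 (−1.18 to −0.37) in palmitate and −1.03 (−1.45 to −0.61) in the combination, the widest intervals of the 10 genes. The IL-1β difference passed the threshold over all genes only without BSA (control) replicate 1, where it was −0.64.

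Counted over the list, 7 of the 10 genes were higher and 1 lower in IL-1β than in BSA (control) past an adjusted p of 0.05 (edgeR quasi-likelihood test, Benjamini-Hochberg over 16306 genes), where 10.1% of all tested genes were higher and 4.97% lower. In palmitate against BSA (control), 6 were higher and 2 lower, where 19.8% of all genes were higher and 17.5% lower. In palmitate + IL-1β against BSA (control), 8 were higher and 2 lower, where 24.8% of all genes were higher and 22.5% lower. These 3 comparisons share the BSA (control) libraries, and since the genes were chosen with these contrasts known, nothing is read from the counts. The median log2 difference of the 10 genes was 0.52, 0.46 and 0.88 in the 3 comparisons in that order, beside 0.00 after rounding for all genes tested. Under upper-quartile scaling the share of called genes that were higher was 43.5% in place of 67.1% for IL-1β, 37.1% in place of 53.1% for palmitate and 38.7% in place of 52.4% for the combination, each against BSA (control).

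**Figure D2:**
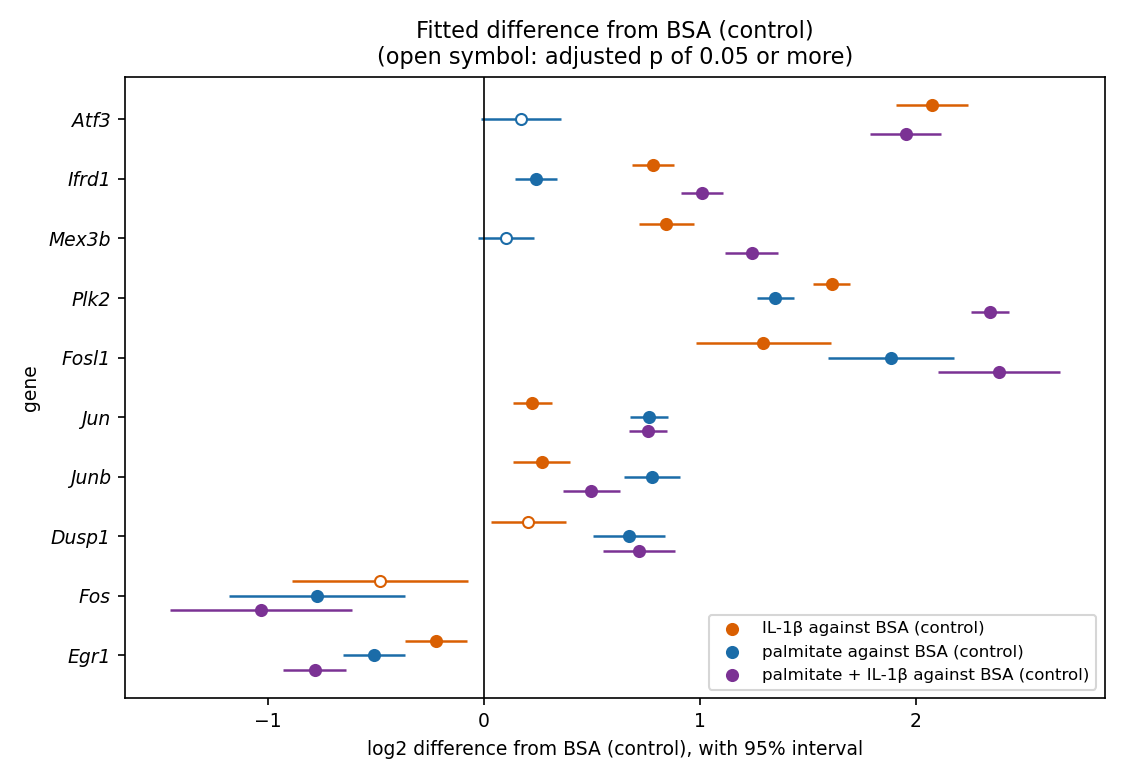
Fitted log2 difference from BSA (control) of each of the 10 genes (horizontal axis, with 95% interval) for the 3 treatments; open symbols have an adjusted p of 0.05 or more over all genes. The symbols of Atf3 run from 0.17 to 2.07, those of Fosl1 and Plk2 are above 1 in all 3 comparisons, and those of Fos and Egr1 are below 0.

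The treatments were also compared with each other. When IL-1β was added to palmitate, 5 genes were higher (Fosl1, Atf3, Plk2, Ifrd1 and Mex3b) and 2 lower (Junb and Egr1), where 5.71% of all genes were higher and 4.1% lower; Atf3 differed most, by 1.78 (1.62 to 1.94). When palmitate was added to IL-1β, 7 were higher (Fosl1, Jun, Junb, Dusp1, Plk2, Ifrd1 and Mex3b) and Egr1 was lower, where 18.9% of all genes were higher and 16.1% lower; Fosl1 differed most, by 1.09 (0.84 to 1.34), and Atf3 had an interval of −0.26 to 0.02. With palmitate set directly against IL-1β, 4 genes were higher with palmitate (Fosl1, Jun, Junb and Dusp1) and 5 lower (Atf3, Egr1, Plk2, Ifrd1 and Mex3b), where 16.5% of all genes were higher and 15.2% lower. In that comparison the log2 difference ran from −1.90 for Atf3 to 0.59 for Fosl1. The interval of Fos included 0 in 2 of these 3 comparisons and was −0.999 to −0.103 when palmitate was added to IL-1β, a difference that passed the threshold under 4 of 6 other settings and not here. The Egr1 difference between palmitate + IL-1β and palmitate, −0.27, did not pass without palmitate replicate 11 or 12.

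An interaction asks whether palmitate changed a gene by a different log2 amount, that is by a different fold, with IL-1β than without it. It was negative past the threshold for 4 of the 10 genes (Fosl1, Jun, Junb and Plk2) and did not pass it for the other 6, where 1.83% of all genes were lower and 0.159% higher. The palmitate difference of Fosl1 was 1.88 without IL-1β and 1.09 with it, an interaction of −0.79 (SE 0.193); that of Junb was 0.78 and 0.23, an interaction of −0.55 (SE 0.0900). For Plk2 it was 1.35 and 0.73, and for Jun 0.76 and 0.53, with an interaction of −0.23 (SE 0.0609). The Jun interaction was the least stable, as it missed the threshold in 12 of 16 fits that left out 1 library and passed only without BSA (control) replicate 1, IL-1β replicate 8, palmitate replicate 12 or palmitate + IL-1β replicate 15. The Fosl1 interaction did so in 3, those without BSA (control) replicate 2, IL-1β replicate 5 or palmitate replicate 12. With BSA (control) replicate 2 left out, 2 of the 4 remained, Junb and Plk2.

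**Figure D3:**
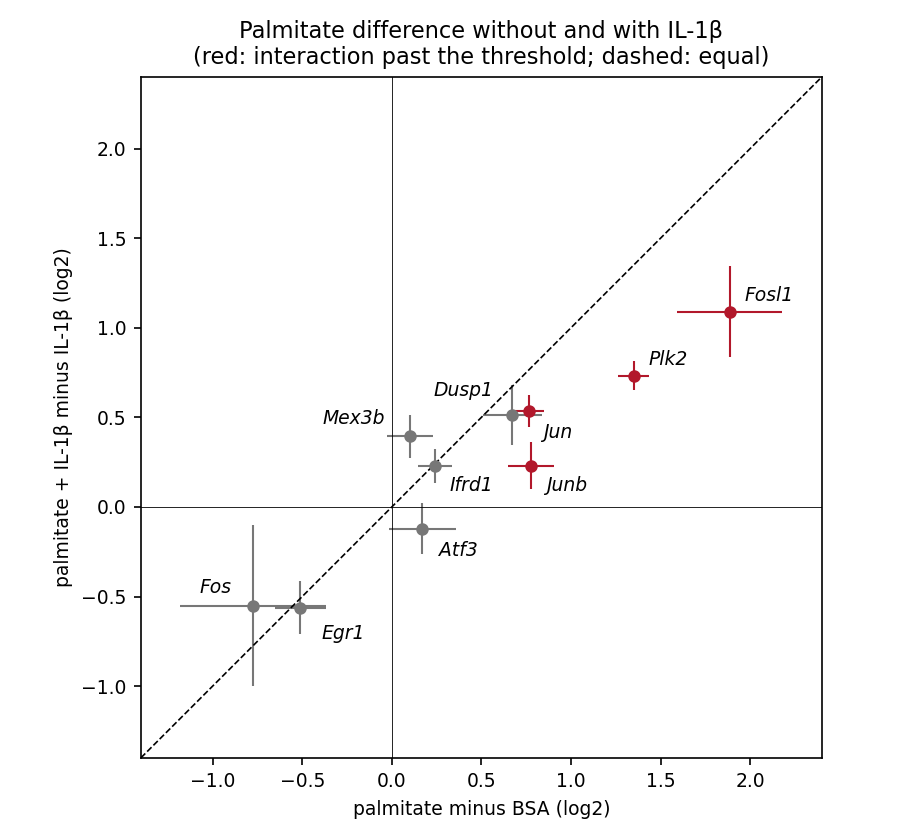
The log2 difference made by palmitate without IL-1β (horizontal axis) and with it (vertical axis), with 95% intervals, for the 10 genes; the dashed line marks equal differences and red marks an interaction past the threshold over all genes. Fosl1, Plk2, Jun and Junb lie below the line, and Mex3b lies above it, at 0.10 and 0.39.

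The makeup of the AP-1 transcripts was described per length. Within the Fos family, Fosl2, which is no member of the list, held 89.8% ± 0.956 (SD, n = 4) of the FPKM in BSA (control) and 81.4% ± 1.61 in palmitate + IL-1β. Its own level did not fall. Against BSA (control), Fosl2 differed on the log2 scale by 0.25 in IL-1β, 0.16 in palmitate and 0.28 in the combination (edgeR quasi-likelihood test, adjusted p of 5.25e-05, 0.00237 and 1.26e-06). Fosl1 held 4.23% ± 0.581 under BSA (control), 8.58% ± 2.11 with IL-1β, 13.2% ± 0.951 with palmitate and 16.5% ± 1.55 with the combination. Fos held 4.64% ± 1.05, 2.73% ± 0.305, 2.25% ± 0.209 and 1.67% ± 0.406 in the same order. The ratio of Fosl1 to Fos in FPKM was thus 0.955 ± 0.314 under BSA (control), 3.13 ± 0.647 with IL-1β, 5.87 ± 0.586 with palmitate and 10.3 ± 2.47 with the combination, with ranges that did not overlap. Reads from the 57.2% of the Fosl1 exonic length that overlaps Ccdc85b may not all have been counted. The level of Fosl1 beside other genes, and so its share and this ratio, is therefore uncertain. Within the Jun family, Jun held 34.3% ± 0.319 in BSA (control) and 46.3% ± 1.09 in palmitate + IL-1β, while Jund went from 54.3% ± 0.694 to 40.9% ± 1.23. The level of Jund itself differed from BSA (control) by −0.14 in IL-1β, 0.17 in palmitate and −0.08 in the combination, on the log2 scale. Only the palmitate difference passed the threshold (edgeR quasi-likelihood test, adjusted p of 0.0713, 0.0137 and 0.238). Junb stayed between 11.4% ± 0.537 in BSA (control) and 14.1% ± 0.479 in palmitate.

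**Figure D4:**
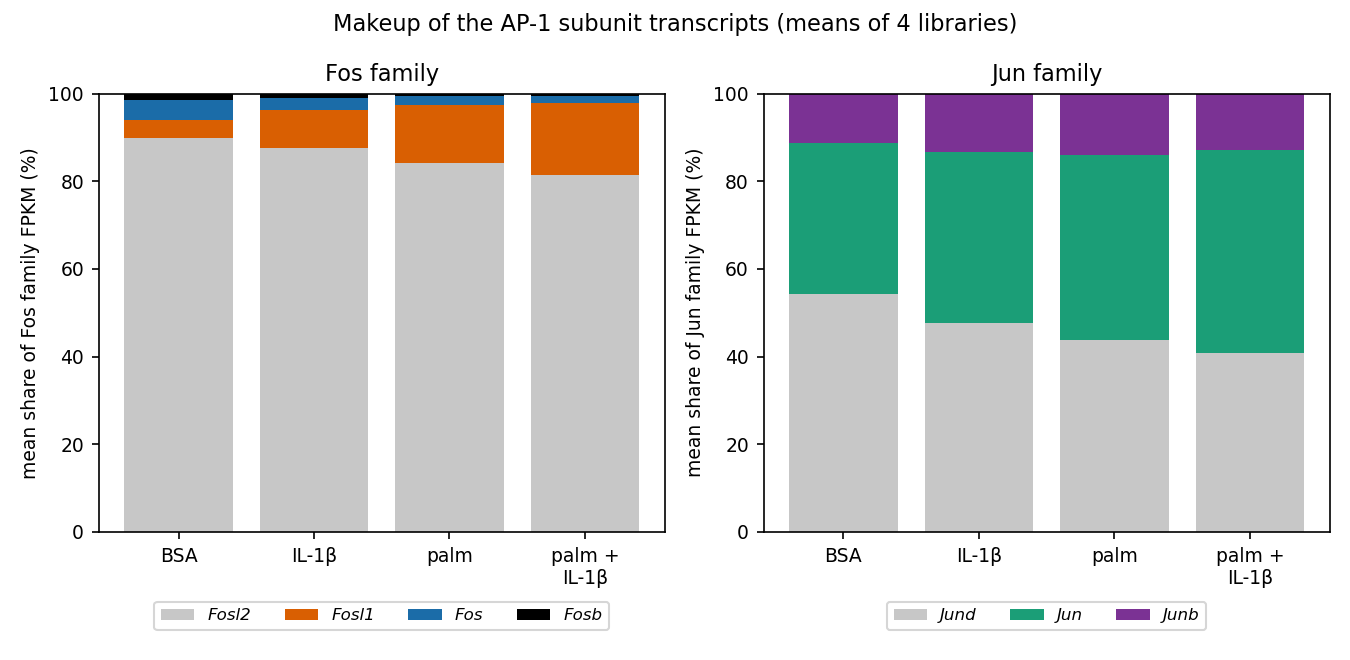
Mean share (%) of the summed FPKM of the Fos family (left) and of the Jun family (right) held by each gene, over 4 libraries of BSA (control), IL-1β, palmitate (palm) and palmitate + IL-1β. The share of Fosl1 goes from 4.23% to 16.5% and that of Jun from 34.3% to 46.3% between BSA (control) and palmitate + IL-1β.

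Around the members, the other AP-1 and related bZIP genes moved in part. Of 9 tested, 4 rose in IL-1β, 5 rose and 2 fell in palmitate and 4 rose and 3 fell in palmitate + IL-1β, each against BSA (control), with medians of 0.11, 0.16 and −0.03. The shares of all tested genes are the reference for these and the following list counts. They were 10.1% higher and 4.97% lower in IL-1β, 19.8% and 17.5% in palmitate and 24.8% and 22.5% in the combination. Their balance of higher and lower depended on the scaling, as given above. The small Maf factors, which lack a transactivation domain, led the rises, with Mafg up by 0.72 in IL-1β (edgeR quasi-likelihood test, adjusted p = 1.32e-13) and Maff up by 1.25 in palmitate (adjusted p = 3.32e-16). The large factor Maf fell by 0.75 on the log2 scale in palmitate (adjusted p = 1.02e-13).

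The other immediate early genes went both ways. Of 35 tested, 12 rose and 2 fell in IL-1β, 13 rose and 9 fell in palmitate, and 16 rose and 13 fell in palmitate + IL-1β, with medians of 0.12, 0.07 and 0.03 against BSA (control). The 2 that fell in IL-1β were near the share of all genes (4.97%). The growth regulator Myc rose most in IL-1β, by 1.14 (SE 0.116), and in the combination, by 1.94 (SE 0.111). The anti-apoptotic gene Ier3 rose most in palmitate, by 1.79 (SE 0.092), and the orphan nuclear receptor Nr4a1 was lowest there, at −1.47 (adjusted p = 1.04e-08, edgeR). Of the 35, 9 had a negative interaction past the threshold, where 1.83% of all genes were lower and 0.159% higher. Ier3 was among them, with −0.67 (SE 0.127).

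Several of the signalling counts were near the shares of all genes (10.1% higher and 4.97% lower in IL-1β, 19.8% and 17.5% in palmitate). Among the genes that switch MAP kinase signals off, 4 of 8 other MAP kinase phosphatases rose and 2 fell in IL-1β, while 2 rose in palmitate. Dusp10, which acts on p38 and JNK, rose by 0.54 (SE 0.0813) in IL-1β and 0.40 (SE 0.0807) in palmitate, and Dusp6, an ERK phosphatase, fell by 0.36 on the log2 scale in IL-1β (edgeR, adjusted p = 0.0223). Of 6 Sprouty and Spred inhibitors of ERK signalling, 1 fell in IL-1β, and 2 rose and 2 fell in palmitate, with Spred2 up by 0.77 (SE 0.0618) and Spry1 lower by −0.44 (SE 0.111) in palmitate. Of 23 MAP kinases and their kinases, 1 passed the threshold in IL-1β, Map3k8, which rose by 0.94 (SE 0.113), and in palmitate 10 rose and 4 fell. Map3k8, the kinase Tpl2 that links NF-κB signals to ERK, rose by 1.61 (SE 0.105) in palmitate, and Map2k6, a p38 activator, was lower by −1.004 (SE 0.111). Of 12 genes of SRF, its ternary complex partners and the CREB family, 3 rose and 2 fell in IL-1β and 3 rose and 4 fell in palmitate. Srf itself was lower by −0.25 (SE 0.0675) in IL-1β, −0.34 (SE 0.0668) in palmitate and −0.65 (SE 0.0682) in the combination. SRF acts on the serum response elements of Fos and Egr1, and its part in their levels here was not tested.

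The stress lists around Atf3 and Plk2 also went both ways, with falls in palmitate near the 17.5% of all genes for the integrated stress response and heat shock lists. Of 14 integrated stress response genes, 5 rose and 1 fell in IL-1β, with Ppp1r15a, the stress-induced subunit that recruits a phosphatase to eIF2α, up by 0.65 (SE 0.0521). In palmitate 7 rose and 2 fell, with Cebpb up by 1.67 (SE 0.0494) and the glutathione-degrading enzyme Chac1 lower by −0.44 (SE 0.0544). The genes named are the extremes of this list, whose median log2 difference was 0.07 in IL-1β and 0.08 in palmitate. Of 13 p53 targets, 6 rose and 1 fell in IL-1β and 8 rose and 3 fell in palmitate, with Gadd45a, a growth arrest gene, up by 0.52 (SE 0.0883) and 0.82 (SE 0.0871) and Pmaip1, which encodes the BH3-only protein Noxa, lower by −0.56 (SE 0.0516) in palmitate. Of 10 heat shock genes, 3 rose and 3 fell in IL-1β and 6 rose and 2 fell in palmitate. Hspa4l, an Hsp110 family chaperone, rose most, by 0.37 (SE 0.0513) in IL-1β and 0.79 (SE 0.0503) in palmitate. The inducible Hsp70 gene Hspa1b was lower by −0.42 (SE 0.0558) and −0.53 (SE 0.0554) in the same comparisons and by −1.21 (SE 0.0579) in the combination. Hspa1b has a near-identical copy, Hspa1a, so its counts are uncertain.

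Among 9 paralogs of the members, 2 rose in IL-1β, and 2 rose and 2 fell in palmitate, close to the 19.8% higher and 17.5% lower of all genes. Plk3 rose by 0.90 (SE 0.105) in IL-1β and by 1.00 (SE 0.103) in the combination, and Mex3a was lower by −0.17 (SE 0.0518) in palmitate, where Mex3b differed by 0.10. Of 14 genes commonly given as AP-1 targets, 8 rose and 1 fell in IL-1β, 12 rose in palmitate and 10 rose and 1 fell in the combination, with medians of 0.35, 0.83 and 1.09 beside 0.00 after rounding for all genes. The cytokine Lif rose most in IL-1β, by 1.49 (SE 0.103), and Il6 in palmitate, by 4.19 (SE 0.164), and in the combination, by 4.41 (SE 0.162). Lif had the most negative interaction of this list, −1.34 (SE 0.127; edgeR, adjusted p = 5.91e-09).

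The genes whose levels followed each member most closely were named by the smallest root mean square difference in log2 CPM over the 16 libraries, each gene centred on its own mean. Those of Fosl1 were Nfkbia, which encodes the NF-κB inhibitor IκBα, at 0.197, Csf1 at 0.211 and Map3k8 at 0.228. Those of Plk2 were the antioxidant genes Srxn1 at 0.197 and Hmox1 at 0.221, and Myc at 0.232. Ifrd1 was closest to Cited2, at 0.106, and Ppp1r15a, at 0.110, and Mex3b to Cited2, at 0.165, Foxq1, at 0.167, and Ppp1r15a, at 0.169. Those of Atf3 were Pdk4 at 0.286, Osgin1 at 0.378 and Foxq1 at 0.441. Closest did not mean alike in every condition. In palmitate against BSA (control), the log2 difference was 0.31 for Pdk4, 0.71 for Osgin1 and −0.06 for Foxq1, where that of Atf3 was 0.17. Jun was closest to Fgfr1 at 0.0562, Abcb1b at 0.0577 and Lama4 at 0.0639, and Junb was closest to Camkk2, at 0.0874, and Bhlhe40, at 0.0996. Dusp1 was closest to Lpin3, at 0.0757, Egr1 to Zfp503, at 0.0944, and Fos to Vill, at 0.189. The distance scales with a gene's own range and with its counting noise, so it does not rank the members against each other.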

How the data were processed

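Bulk RNA-seq libraries of mGFs were measured, 4 for each of 4 conditions, grouped by their labels. The deposited table holds raw read counts per gene; per the submitters' processing notes, the authors used Trimmomatic 0.39, STAR 2.7.10a and HTSeq 2.0.9 with GRCm39. A stranded kit for total RNA is named in the labels and an oligo(dT) kit in the study's methods, and the strand setting of the counting is given only in a file's name, so reads of overlapping genes on opposite strands may not have been told apart. Rows naming no gene (18.3% to 21.4% of counts) were left out. Within conditions no 2 libraries agreed within sampling noise (chi-square per degree of freedom 2.67 to 19.9 over 24 pairs).

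Counts were analysed in R 4.3.3 with edgeR 4.0.16 (filterByExpr with a minimum count of 10, TMM, robust quasi-likelihood fit of all 16 libraries, Benjamini-Hochberg adjustment, threshold 0.05), which was tested on simulated data first. The common biological coefficient of variation was 6.08%. FPKM used the exonic length of GENCODE vM39; 56323 genes were found in it. The alternatives were median-of-ratios and upper-quartile scaling, DESeq2 1.42.0, no filter, at least 10 counts in every library, the 8 libraries compared, and leaving out each library. The members, the gene lists and the choice of comparisons were made with earlier results of these data known. From each list, the genes named are those called with the largest rise and the largest fall in a comparison, among those with a mean log2 CPM of at least 1; for each member the 3 most alike genes were found. Figures were drawn with matplotlib 3.10.9.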

Additional observations from a re-analysis of the deposited data

Results flagged for a closer look

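In BSA (control), Egr1 was at 35.8 CPM in replicate 4 and between 30.2 and 31.0 CPM in the other 3 libraries, a gap that is large for 4 values by Dixon's ratio. It was the 1 case found among 40 sets of 4 libraries (10 genes in 4 conditions), and chance marks about 1 set in 20. The same library was the highest of BSA (control) for 7 of the 10 genes. Egr1 in IL-1β did not pass the threshold against BSA (control) without it.

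For 4 genes the log2 palmitate difference was smaller in the presence of IL-1β, by the interaction term of the fit over all genes (edgeR quasi-likelihood test). This is a smaller fold, which need not be a smaller rise in CPM. Mean Plk2 went from 108 to 274 CPM with palmitate in cells without IL-1β, and from 328 to 546 CPM in cells given IL-1β. Mean Fosl1 went from 1.64 to 6.11 CPM and from 4.03 to 8.59 CPM in the same order. The log2 interaction was −0.79 for Fosl1 (adjusted p = 0.0183), −0.23 for Jun (adjusted p = 0.0406), −0.55 for Junb (adjusted p = 0.000175) and −0.62 for Plk2 (adjusted p = 4.85e-09). The genes were chosen with these values known, and the cause was not tested.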

How the results depend on the processing

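Of 54 member differences past the threshold over 7 comparisons, 50 kept their sign and their side of it under every alternative run. The other 4 were Egr1 in IL-1β against BSA (control) (also lost when the 8 libraries compared were fitted alone), Egr1 in palmitate + IL-1β against palmitate (lost without palmitate replicate 11 or 12), and the interactions of Fosl1 and Jun; that of Jun was also lost under upper-quartile scaling and with no filter. Of the 16 differences not called, 9 changed side or sign. Fos in palmitate + IL-1β against IL-1β passed under 4 of 6 other alternatives, and the Mex3b interaction under upper-quartile scaling and with no filter. The interaction of Ifrd1 was −0.01 and reversed to 0.024 under upper-quartile scaling; over fits leaving out 1 library it ran from −0.047 to 0.020, and that of Egr1 from −0.12 to 0.0035. In palmitate + IL-1β against palmitate, Jun ran from −0.025 to 0.014 and Dusp1 from −0.0082 to 0.079. The number of members with a called interaction ran from 2 to 4 when 1 library was left out, with 2 without BSA (control) replicate 2. Atf3 in palmitate against BSA (control) passed only without palmitate replicate 10, the deepest library. The cause of these changes was not tested. Calls were counted here with higher and lower genes added. No such count over all genes or the 10 members moved by over 1.5 times under another scaling, filter or tool, or when the 8 libraries compared were fitted alone. With 1 library left out, 1 such count did, that of the member interactions without BSA (control) replicate 2. For the gene lists 17 counts did under the former alternatives, each a count of 5 or fewer as reported. Another 34 list counts did when 1 library was left out. In IL-1β, for example, the SRF and CREB list had 3 calls in place of 5 with no filter. The balance of higher and lower calls over all genes was less stable. In IL-1β against BSA (control), 43.5% of called genes were higher under upper-quartile scaling, in place of 67.1%. No paired analysis was possible because the replicate numbers, 1 to 16, are shared by no conditions. Fos, at 22 to 70 counts in all but 1 library, is the member whose precision depth limits most.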
